A study of Mus musculus with 4 samples.

Results

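Dense clusters of TLE3 regions are stretches of the mouse genome in which 8 or more bound regions of the corepressor TLE3 lie in a row with gaps of at most 12.5 kb. The lists for adipocytes of epididymal white fat, called eWAT here, of inguinal white fat (iWAT) and of brown fat (BAT) were joined into 69599 regions, each spanning 230 bp. Neighbours were stitched into 35818 stretches, and 554 stretches held 8 or more regions. These 554 clusters hold 5529 regions, or 7.94% of all regions in 1.55% of the stretches. The clusters were chosen by the listing and the spacing of the regions, so their number, their size and their summed values are descriptions with no test.

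TLE3 was measured by chromatin immunoprecipitation and sequencing in primary adipocytes of male NMRI mice aged 4 to 5 weeks. Stromal-vascular cells of eWAT, of iWAT and of BAT pooled from interscapular, cervical and axillary sites came from pools of 10 to 15 mice. All cultures received 1 µM rosiglitazone, which activates PPARγ, with 30 nM insulin, and were harvested on day 8 with over 50% differentiation. All chromatin, the input included, was crosslinked for 15 min in 2 mM disuccinimidyl glutarate, followed by 30 min in 1% formaldehyde. There was 1 TLE3 library per depot, made with an anti-TLE3 antibody, and 1 input library without antibody from iWAT cells. With no replicates, depot and library cannot be told apart, and neither can the share of differentiated cells in a culture and the TLE3 bound per cell.

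Coordinates are those of mm9 unless another build is named. The values are reads per region that the authors scaled to a common total, called scaled reads here. The scaled value of a single read was 0.883 for eWAT, 0.526 for iWAT and 2.77 for BAT, so the BAT library was the shallowest. The clusters rested on 285180 reads from eWAT, 483141 from iWAT and 36083 from BAT. Counting alone cannot tell 0 reads from up to 3, which come to 2.65 (eWAT), 1.58 (iWAT) and 8.30 (BAT) scaled reads. In 92 of the 554 clusters the BAT sum rested on fewer than 30 reads. These limits, and the intervals given with ratios, cover counting error only.

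TLE3 belongs to the Groucho family of corepressors, which do not bind DNA themselves. They are brought to chromatin by transcription factors, among them TCF/LEF factors of the Wnt pathway, RUNX and Hairy/Enhancer-of-split factors, and recruit histone deacetylases. In fat cells TLE3 is known as a partner of PPARγ at genes of lipid storage and as an opponent of PRDM16 in the thermogenic programme. Runs of closely spaced bound regions are often found around genes that define a cell type.

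Most cluster regions lay far from promoters, but 9 regions listed in all 3 depots had their centre within the 250 bases upstream of a start site. They belong to Nckap5, Pparg, Tenm4, Il33, Tnfsf18, Serpina3n, Ccl2, Serpina3m and 2310010J17Rik, and 6 of the 9 start sites could be matched to promoter sequences. The 4 below are those whose start was identified among several by the spacing of the genes' starts, and they show promoter DNA inside dense clusters that was listed in every depot. They are RefSeq sequences of the 250 bases upstream of the start in build GRCm38.p6, 5′ to 3′ on the gene's strand. Capitals mark the bases covered by the TLE3 region, placed by its deposited distance from the start, which assumes that the authors' start is the same.
Pparg, plus strand, chr6:115421816-115422065: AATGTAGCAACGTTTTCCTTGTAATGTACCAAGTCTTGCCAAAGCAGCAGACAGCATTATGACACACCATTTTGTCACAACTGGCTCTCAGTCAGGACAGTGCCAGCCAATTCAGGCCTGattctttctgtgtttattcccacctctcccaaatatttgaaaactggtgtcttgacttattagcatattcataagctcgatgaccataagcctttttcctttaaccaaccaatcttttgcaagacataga
Nckap5, minus strand, chr1:126830633-126830882: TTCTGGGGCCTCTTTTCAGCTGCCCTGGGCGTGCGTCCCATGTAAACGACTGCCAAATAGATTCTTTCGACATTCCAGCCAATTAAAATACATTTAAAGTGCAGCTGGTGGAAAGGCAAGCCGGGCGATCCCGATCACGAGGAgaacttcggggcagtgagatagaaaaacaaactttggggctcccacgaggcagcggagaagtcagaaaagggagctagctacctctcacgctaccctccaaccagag
Tenm4, plus strand, chr7:96170994-96171243: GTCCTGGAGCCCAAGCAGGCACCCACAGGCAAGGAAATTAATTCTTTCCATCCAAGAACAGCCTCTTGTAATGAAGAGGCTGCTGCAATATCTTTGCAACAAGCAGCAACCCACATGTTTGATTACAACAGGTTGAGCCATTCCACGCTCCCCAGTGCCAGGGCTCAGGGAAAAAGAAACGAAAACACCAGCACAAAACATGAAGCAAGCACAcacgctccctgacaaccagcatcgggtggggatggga
Il33, plus strand, chr19:29924863-29925112: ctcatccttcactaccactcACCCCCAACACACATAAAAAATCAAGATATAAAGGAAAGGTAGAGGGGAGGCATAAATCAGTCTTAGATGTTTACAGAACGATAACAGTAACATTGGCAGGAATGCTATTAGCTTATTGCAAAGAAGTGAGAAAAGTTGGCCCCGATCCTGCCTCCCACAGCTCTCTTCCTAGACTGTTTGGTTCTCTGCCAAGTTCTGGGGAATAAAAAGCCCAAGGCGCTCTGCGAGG

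The Pparg region, whose centre lay 245 bp upstream of a Pparg start within the gene, had 106 scaled reads in the eWAT library, 95.6 in iWAT and 80.2 in BAT, against 2.60 in the input. The Nckap5 region, 222 bp upstream of its start, had 174, 128 and 99.5 in the same order, against 9.11. The Tenm4 region had 73.3, 63.1 and 66.4, and the Il33 region, at the gene of an alarmin cytokine, had 98.9, 62.5 and 30.4. All 4 regions were chosen as listed in every depot, so their presence in each library is not a result. Values were close at Tenm4, and the lowest BAT value of the 4 was at Il33. The 6 matched windows were searched on both strands for the nuclear receptor letters AGGTCA, the C/EBP palindrome TTGCGCAA, the TCF/LEF letters CTTTGA, the AP-1 letters TGANTCA and the RUNX letters TGTGGT, and held 0 matches. Of 32851 promoter windows of the same length, 14.0%, 0.164%, 13.8%, 6.75% and 14.0% held these letters in the same order.

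A typical cluster spanned 43.4 kb (median, range 13 to 138 kb), and all clusters together spanned 25.9 Mb. The median cluster held 9 regions and the largest 31. There were 201 clusters with exactly 8 regions, 106 with 12 or more and 34 with 15 or more. Within clusters the median gap between neighbours was 4498 bp. The strongest region of a cluster held 24.0% of its summed value (median, range 11.2% to 50.3%). Clusters of exactly 8 regions had a median sum of 824 scaled reads over the 3 libraries, and the largest sums were 2571 at Axin2, 2281 at Synpo and 1995 at Habp2. Stretches of exactly 7 regions, which fall outside, numbered 316, with a median sum of 669.6. Their largest sums were 2544 at Gcgr, the glucagon receptor gene, 2276 at Fbln2, a fibulin gene, and 1802 at St3gal1, a sialyltransferase gene.

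**Figure D1:**
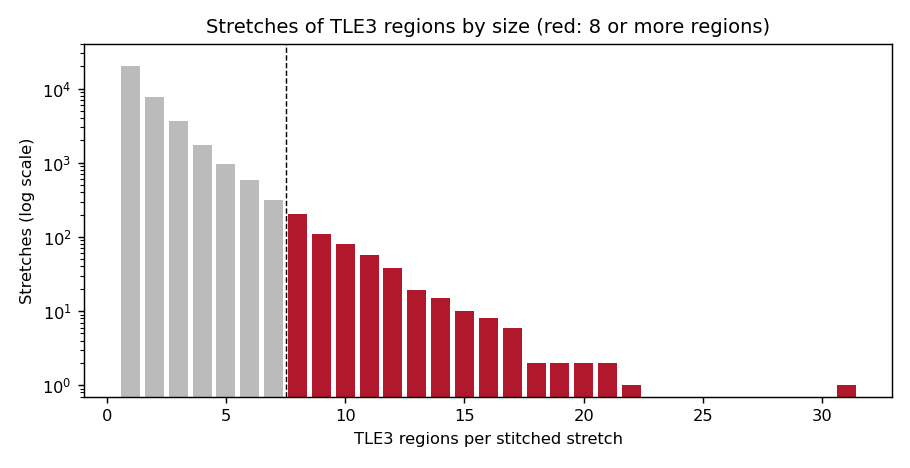
Number of stretches (y axis, log scale) by the number of TLE3 regions they hold (x axis), with the 554 stretches of 8 or more regions in red and a dashed line at the limit. Stretch numbers fall steeply with size, from 20350 single regions to 201 stretches of 8 regions and 1 of 31.

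Cluster regions carried higher values than other regions in all 3 libraries, and the input was higher there too. The median region in a cluster had 34.4 scaled reads from eWAT, 35.2 from iWAT and 11.1 from BAT. Regions outside clusters had medians of 25.6, 26.3 and 8.30. The mean input value was 2.03 scaled reads in clusters and 1.59 elsewhere. The summed TLE3 value was 22.5 times the input in clusters and 23.2 times elsewhere in eWAT, 22.6 and 23.3 times in iWAT, and 8.90 and 8.97 times in BAT. Relative to the input, the values in clusters were slightly below those of other regions. The lowest multiple of the input at a listed region in its own library was 10.0, so listing in part set these multiples. Clusters held 9.62% of the listed-region signal in eWAT, 9.66% in iWAT, 9.83% in BAT and 9.90% of the input reads in listed regions. The part of the input in the higher values was not tested.

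A higher share of cluster regions than of other regions was listed in several depots, as a description, since listing chose the members. In clusters, 20.3% of regions were listed in all 3 depots, against 15.5% elsewhere, and 38.2% were listed in both white depots but not in BAT, against 32.6%. Regions listed in 1 depot only were fewer in clusters, at 18.6% for eWAT, 18.5% for iWAT and 1.81% for BAT, against 23.6%, 22.4% and 3.25%. Of the 554 clusters, 457 held at least 1 region listed in all 3 depots, and no cluster lacked an eWAT or an iWAT region. By contrast, 67 clusters held no BAT region. Counting each depot's own regions, 266 clusters had 8 or more listed in eWAT, 278 in iWAT and 7 in BAT. The lowest listed value was 15.0 scaled reads for eWAT, 15.2 for iWAT and 16.6 for BAT, a similar height that rests on the fewest reads in BAT. The part of depth in these shares was not tested.

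Introns held 50.2% of cluster regions and intergenic DNA 46.1%, against 45.0% and 50.0% of other regions. Promoters held 1.54%, against 2.15%. In all, 76 clusters held a promoter region, 150 were wholly intergenic and 151 wholly intronic. The median distance to the nearest start was 36.1 kb in clusters and 38.9 kb elsewhere, and 16.5% of cluster regions lay over 100 kb from a start, against 26.1%. Of the intronic cluster regions that could be matched to a host gene, 75% lay in a gene that was also the nearest start, so a cluster's name is not always the gene it lies in. The 20 regions of the cluster named BC051665 (chr13:60761441-60856679) all lay in introns of Dapk1, a death-associated protein kinase gene. The 17 regions of the Gm29684 cluster lay in introns of Cradd, a death-domain adaptor gene. The 14 regions of the Gm10400 cluster lay in introns of Pde3a, and the 13 of the Mir582 cluster in introns of Pde4d, both cyclic AMP phosphodiesterase genes. Along the chromosomes, members were 10.8% of the regions on chromosome 13, 10.6% on chromosome 16 and 10.0% on chromosome 8, but 2.33% on chromosome X, where 5 clusters lay.

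Most clusters had a single nearest gene (332 of 554), and 192 had 2. The leading gene was protein-coding in 443 clusters and non-coding in 107. Several genes led more than 1 cluster. Adamts5, an extracellular matrix protease gene, Bmper, a BMP-binding regulator gene, and Nedd9, a focal adhesion scaffold gene, each led 3. In total 30 genes led 2 or more, among them Pparg, Rybp, Igf1 and Col4a1. In 15 places the next dense cluster began within 25 kb.

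The largest cluster, by both number and sum, lay at Tle3 itself, mostly upstream of its start. Its 31 regions at chr9:61088513-61226498 (mm9) summed to 2147 scaled reads from eWAT, 1776 from iWAT and 1280.3 from BAT, against 122 in the input. The gene nearest to 20 of the 31 regions was B930092H01Rik, which names the cluster. Those 20 regions summed to 857, 990.1 and 730.0. The other 11 had Tle3 as nearest gene, reached from 34.9 kb upstream to 6.21 kb into the gene, and summed to 1290.1 in eWAT, 786 in iWAT and 550.3 in BAT. In scaled reads the Tle3 side was thus highest in eWAT and the B930092H01Rik side highest in iWAT. Relative to the centre defined below, the log2 ratio of BAT for the whole cluster was 0.67 over eWAT and 0.98 over iWAT. Such BAT ratios depend on the scaling, as described below. The strongest region (chr9:61218230-61218460, intergenic, 1.83 kb upstream of the Tle3 start) had 298 scaled reads from eWAT, 176 from iWAT and 135 from BAT. It held 11.7% of the cluster's sum, so the value was spread over many regions.

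The Pparg gene led 2 neighbouring clusters. PPARγ is the nuclear receptor at the head of adipocyte differentiation and the target of rosiglitazone, which every culture received. The first cluster (chr6:115283070, 9 regions) lay around the upstream start and summed to 248 scaled reads from eWAT, 303 from iWAT and 77.4 from BAT. The second (chr6:115361629, 8 regions) held the promoter region printed above and summed to 564, 384 and 271. The gap between them was 20.6 kb. The first cluster was highest in iWAT and the second in eWAT. BAT was lowest in both in scaled reads, as it was in the medians over all cluster regions (34.4 from eWAT, 35.2 from iWAT and 11.1 from BAT).

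Rybp, whose product is a subunit of Polycomb repressive complexes, had the second largest sum with only 11 regions. This cluster (chr6:100050782-100109526) was wholly intergenic, 128 to 186 kb downstream of the Rybp start, and summed to 1354 scaled reads from eWAT, 939 from iWAT and 1131 from BAT. Its strongest region, 143 kb from the start, had 304 in eWAT, 175 in iWAT and 525 in BAT. The BAT value was highest at this region and the iWAT value lowest. A second Rybp cluster lay 21.4 kb further towards the gene, with 8 regions and sums of 167, 199 and 216.

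Clusters also covered genes of secreted signals to immune cells. The Ccl2 cluster (chr11:81820377-81902292) ran over 4 chemokine genes, Ccl2, Ccl7, Ccl11 and Ccl12, which draw monocytes and eosinophils. Its 21 regions summed to 1098 scaled reads from eWAT, 1101 from iWAT and 957 from BAT. The 8 regions nearest to Ccl2 took 668, 679 and 785 of these, and the 7 nearest to Ccl11 took 188, 260.1 and 63.6. The strongest region, 28.6 kb upstream of the Ccl2 start, had 215 in eWAT, 176 in iWAT and 395 in BAT. Another, 12.9 kb upstream, had 68.0, 104 and 224. At both of these regions BAT was highest, while the Ccl2 promoter region, 0.180 kb upstream, had 92.7, 53.1 and 41.5. The Csf1 cluster (chr3:107536296-107632805), at the gene of macrophage colony-stimulating factor, held 22 regions with 1183, 938 and 379. There the sums in scaled reads fell in the order eWAT, iWAT, BAT. Relative to the centre defined below, the log2 ratio of BAT over eWAT was 1.21 at the Ccl2 cluster and -0.23 at Csf1. Over iWAT it was 1.25 and 0.15.

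**Figure D2:**
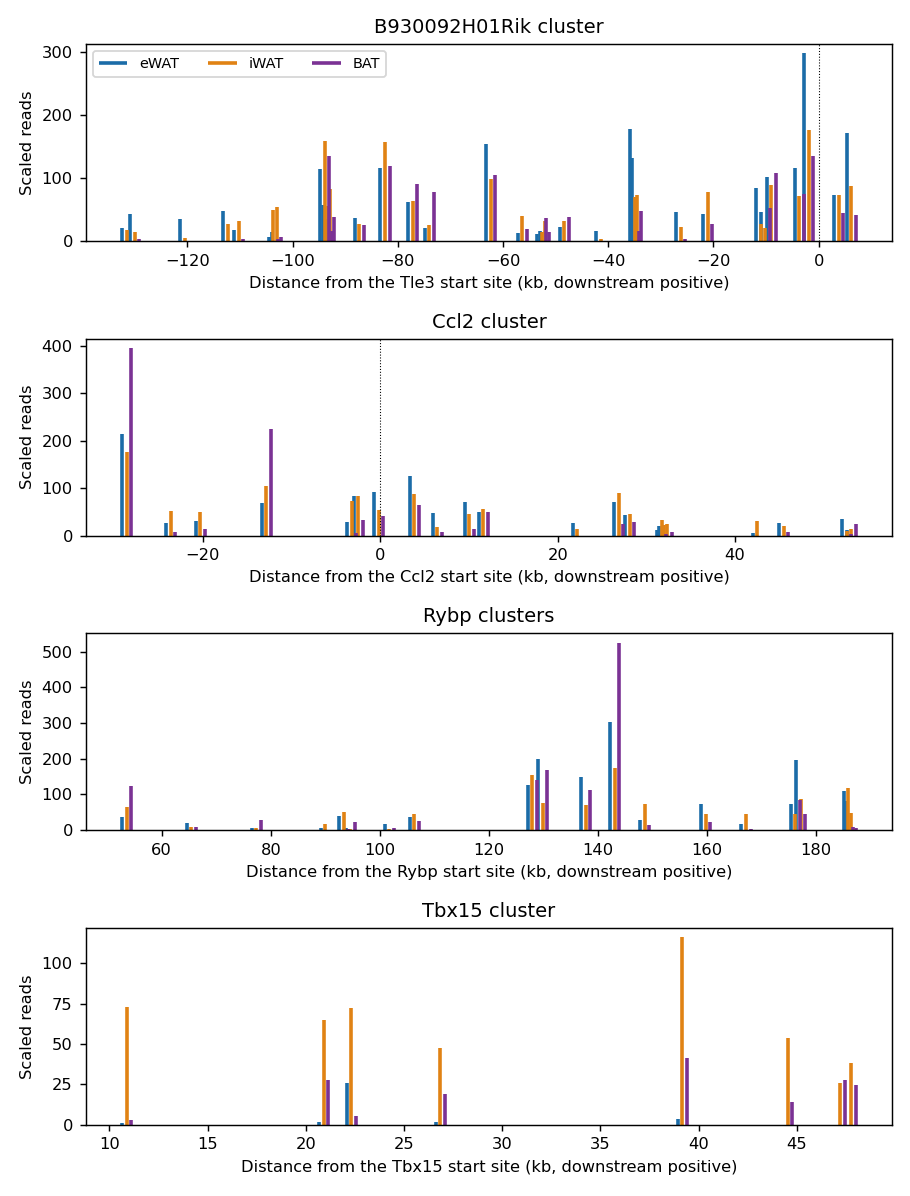
TLE3 value of each region (y axis, scaled reads) along 4 loci, by distance from the gene's start site (x axis, kb), with the 3 libraries drawn side by side. A dotted line marks the start at Tle3 and Ccl2, and all Rybp and Tbx15 regions lie downstream of it. The tallest region at the Tle3 locus has 298 scaled reads in eWAT, the Ccl2 and Rybp loci each have a region that is highest in BAT (395 and 525 scaled reads), and the Tbx15 regions are near 0 in eWAT except for 1 of 25.6.

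Among Wnt pathway genes, Axin2, a feedback inhibitor of Wnt signalling, stood out by value per region. Its 8 regions (chr11:108841833-108876391), all intergenic and 60.3 to 94.6 kb from the start, summed to 921 scaled reads from eWAT, 939 from iWAT and 711 from BAT. Relative to the centre defined below, the log2 ratio of BAT was 1.04 over eWAT and 1.05 over iWAT. The mean over the 3 libraries together was 321 per region, the highest of all clusters, followed by Rybp with 311, Synpo with 285, Habp2 with 249 and 4930487H11Rik with 216. The lowest means were 35.4 at Mir29b-1, 37.3 at Ppm1a and 42.1 at 1700016C15Rik. Further Wnt antagonist genes had clusters, Sfrp2 (379.7 scaled reads from eWAT, 535 from iWAT and 133 from BAT), Nkd1 (392, 328 and 207) and Apcdd1 (219, 129 and 22.1). Their values per library did not keep one order. These 4 genes were 15.4% of the 26 Wnt and Notch targets with a region, beside 5.37% of all genes with a region that lay in clusters. The list was written with earlier results of these data known, so its share is a description.

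Col4a1 and Col4a2, which encode the paired chains of type IV collagen, held 3 clusters with 36 regions over 194 kb (chr8:11225870-11419605). These summed to 2244 scaled reads from eWAT, 2298 from iWAT and 738 from BAT. In the cluster named Col4a2 (16 regions, 1072, 1234 and 409), 15 regions lay in introns of Col4a1. Conversely, in the 2 clusters named Col4a1, all 12 and all 8 regions lay in introns of Col4a2. The Dlc1 cluster (chr8:37949165-38036779) held 19 regions with 1021, 1237 and 578, and 11 of them were listed in all 3 depots. The Cd93 cluster (chr2:148268004-148364196), at a cell surface lectin-like receptor gene, held 18 regions with 949, 954 and 733. Its strongest region, 78.5 kb upstream, had 240.2, 231 and 133. The white depots were close to each other in the Cd93 sum, and BAT was lower in all of these sums in scaled reads. BAT was also lower in the medians over all cluster regions. Relative to the centre defined below, the log2 ratio of BAT over eWAT was 1.04 at Cd93, 0.59 at Dlc1 and 0.02 at the Col4a2 cluster. Over iWAT it was 1.07, 0.36 and -0.14. The Col4a1 cluster of 12 regions had -0.52 over eWAT and -0.29 over iWAT.

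The remaining clusters with the most regions were those of 1700034E13Rik (21 regions, with 741 scaled reads from eWAT, 1098 from iWAT and 290.4 from BAT), BC051665 (20 regions, 849.5, 639 and 423), Slc38a6 (20 regions, 653, 1036 and 205) and Hipk2 (18 regions, 721, 431 and 188). Hipk2 encodes a nuclear kinase, and Slc38a6 a member of an amino acid transporter family. A large number of regions thus came with either white depot as the higher one. Ranking clusters by their sum in each library, 7 of the top 20 were shared by all 3, which is 35% of each list. The Tle3, Rybp, Ccl2, Dlc1, Cd93 and Axin2 clusters were among them.

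**Figure D3:**
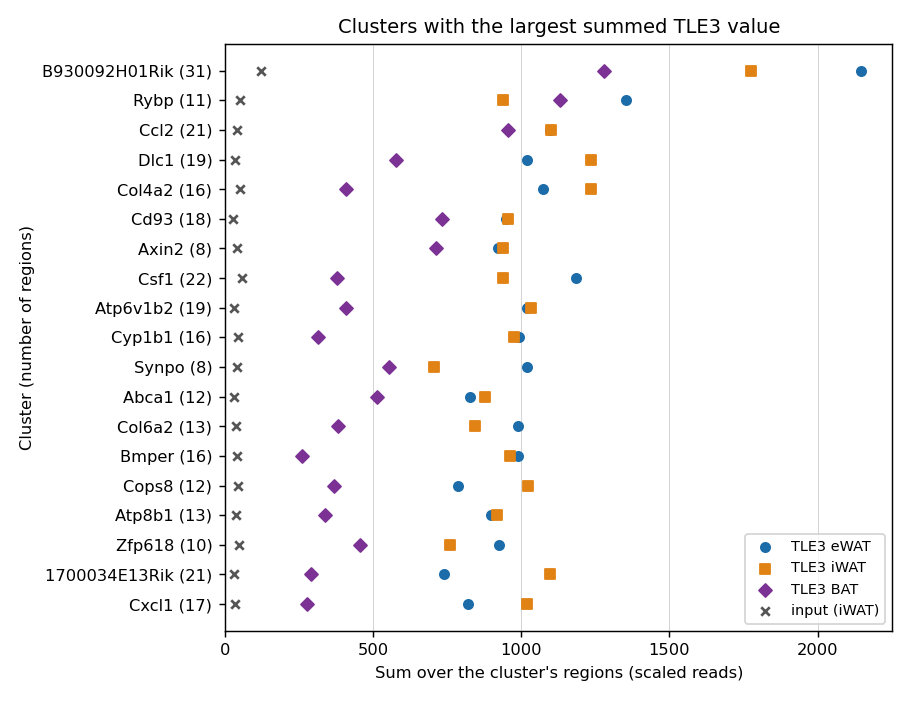
Summed value (x axis, scaled reads) of 19 of the 20 clusters with the largest sums (y axis, number of regions in brackets) in each TLE3 library and in the input. BAT lies lowest of the 3 TLE3 libraries in most rows and lies above iWAT at Rybp (1131 against 939), and every input sum is at most 122.

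Genes of lipid storage, several adipocyte transcription factors and matrix genes lay in clusters. Over all 14265 genes named as nearest to a region, 766, or 5.37%, were nearest to a cluster region. The lists set beside this share were written with earlier results of these data known. Their shares are descriptions and were not adjusted for the number of regions per gene. Of 35 identity and lipid storage genes of adipocytes, 7, or 20%, were in clusters. Besides Pparg, these were Mgll, Gpam, Lpl, Adipoq, Cd36 and Scd1. Mgll, which encodes monoglyceride lipase, had 8 regions with 770.0 scaled reads from eWAT, 617 from iWAT and 312 from BAT. Gpam, the mitochondrial acyltransferase that starts triglyceride synthesis, had 12 regions with 747, 562 and 191. Lpl, lipoprotein lipase, had 12 regions in 2 clusters with 607, 509.8 and 224. The larger of these, named Atp6v1b2 after a proton pump subunit gene, held 19 regions at chr8:71476742-71561923 with 1019, 1033 and 409, and its Lpl regions lay 72.4 to 102 kb from the Lpl start. At Mgll, Gpam and Lpl the sums fell in the order eWAT, iWAT, BAT, whereas Adipoq, with 6 regions, had 344, 430.4 and 113.

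Of 45 adipocyte transcription factors and coregulators, 6, or 13.3%, were in clusters. These were Tle3, Zbtb16, Klf4, Nr3c1, Nfib and Runx1. Zbtb16, a zinc finger factor, had 8 regions with 538 scaled reads from eWAT, 489 from iWAT and 285 from BAT. Klf4, a Krüppel-like factor, had 10 regions with 384, 438 and 96.8, and Nr3c1, the glucocorticoid receptor, had 7 with 324, 392 and 80.2, although all 8 regions of that cluster lay in introns of Arhgap26. Genes of insulin signalling and glucose handling gave 3 of 32 genes with a region, or 9.38%, beside 5.37% over all genes. A count of 3 genes is near that share. The 3 were Igf1 (20 regions in 2 clusters, 899.8, 761 and 259.9), Hk2 (10 regions, 692, 560.2 and 229.5), a hexokinase, and Insr (8 regions, 330.2, 429 and 169), the insulin receptor. BAT was lowest at all 6 of the genes given here with values, as it was in the medians over all cluster regions.

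The thermogenic list gave 1 gene of 29 with a region, Irf4, a transcription factor that acts with PGC-1α in brown fat. Its 9 regions had 306 scaled reads from eWAT, 406 from iWAT and 127 from BAT. With so few genes, this count is near the share over all genes. Mitochondrial oxidative phosphorylation gave 2 of 18 with a region, Atp5o (571, 487 and 177) and Cox6c (323, 510.3 and 138). Both counts rest on nearest starts. In the Atp5o cluster 9 of 11 regions lay in introns of Itsn1, and in the 2 Cox6c clusters 8 of 9 and 8 of 8 regions lay in introns of Vps13b. This count is also close to the share over all genes.

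Stromal and fibroblast genes gave 10 of 34, or 29.4%, the highest share of the 14 lists. This ranking is a description, as the lists were written with earlier results of these data known. Of the 10, S100a4, Tgfbr3 and Dcn were counted through 1 region each, in clusters named after other genes, and Col4a1 and Col4a2 share a locus. Besides Col4a2 and Col4a1, Postn, the matrix protein periostin, had 11 regions with 474 scaled reads from eWAT, 636 from iWAT and 147 from BAT, and Col3a1, a fibrillar collagen gene, had 14 in 2 clusters with 445, 633 and 127. Both were highest in iWAT. No gene of the macrophage, endothelial, skeletal muscle or hepatocyte lists, which had 8 to 11 genes with a region, was in a cluster. With so few genes per list, a count of 0 is near the share over all genes, 5.37%. Snap25, of the neuronal list, had 9 regions with 400.0, 269 and 149, and Wt1, of the mesothelial list, had 7 with 189.9, 326 and 63.6. These data hold no RNA, so the labelled cell type could not be checked by expression. Of 8 defining adipocyte markers, all had a TLE3 region and 4 (Adipoq, Lpl, Cd36 and Pparg) lay in clusters. The same held for 2 of 6 stromal markers (Col3a1, and Dcn through 1 region), 1 of 3 neuronal markers (Snap25) and 1 of 3 mesothelial markers (Wt1). It held for 0 of the 4 macrophage, 4 endothelial, 2 skeletal muscle and 3 hepatocyte markers with a region, which are too few to set apart from the share over all genes.

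**Figure D4:**
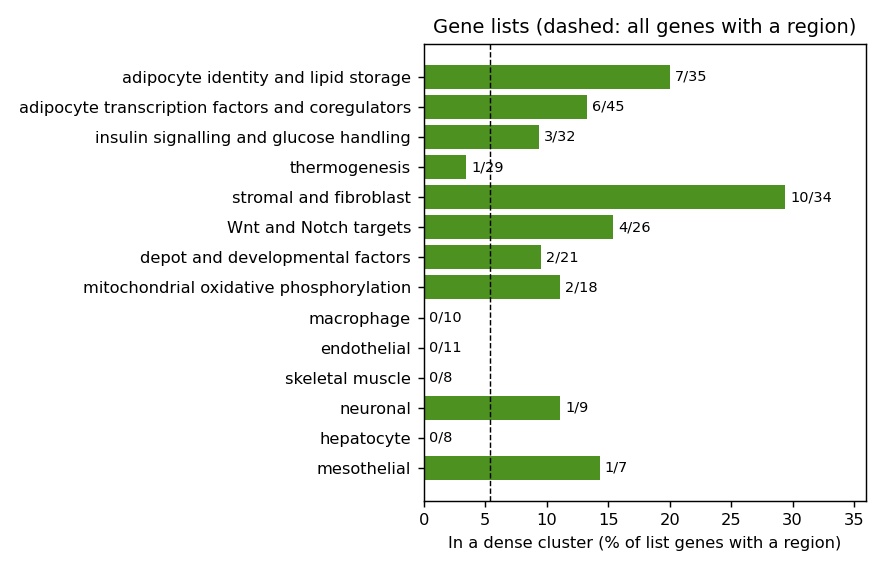
Share of the genes of each list that lie in a dense cluster (x axis, % of list genes with any TLE3 region), with the counts beside each bar and a dashed line at 5.37%, the share over all genes with a region. The lists were written with earlier results of these data known. The stromal list has the longest bar (10 of 34), followed by adipocyte identity (7 of 35). The 4 lists at 0 have 8 to 11 genes with a region, so 0 is near the dashed line for them.

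Depots were compared by the log2 ratio of the summed values of a cluster. Ratios were centred on the median ratio of the strongest 25% of all regions, which was 0.13 between the white depots (eWAT over iWAT), -1.41 where BAT was set over eWAT and -1.46 where it was set over iWAT, and a cluster was counted when it lay more than 2-fold from that centre. The 3 comparisons share libraries and are not independent, and each compares libraries, not conditions. Intervals are exact Clopper-Pearson 95% intervals on the reads.

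Few clusters differed 2-fold between the white depots. Only the Auts2 cluster was over 2-fold higher in eWAT, 0.181% of clusters, and 20 clusters (3.61%) were over 2-fold higher in iWAT. Over all 15468 stretches of 2 or more regions, the shares were 7.42% and 15.3%. Larger stretches sum more reads, and the SD of the ratio was 1.08 in stretches of 2 to 3 regions, 0.69 in those of 4 to 7 and 0.44 in clusters. The part of read number in this narrowing was not tested. The median cluster lay at -0.14, and at -0.01 with the authors' scaling. It was 0.10 when clusters were chosen without the iWAT list and -0.30 without the eWAT list, so its side followed the list that chose the members. The split past 2-fold moved too. Clusters higher in eWAT and in iWAT numbered 2 and 11 with the authors' scaling. They numbered 1 and 2 without the iWAT list, and 0 and 21 without the eWAT list.

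Tbx15, a T-box transcription factor gene that marks developmental identity of fat depots, had the largest ratio. Its 8 regions (chr3:99068445-99105568), all in introns of the gene, summed to 33.6 scaled reads from eWAT, 491 from iWAT and 163 from BAT, against 11.1 in the input. Values in eWAT were 0 to 3.53 at 7 regions and 25.6 at the other, whereas iWAT had 25.8 to 116. The highest eWAT value, 25.6, lay just under the lowest iWAT value, 25.8, and the BAT values were 2.77 to 41.5. The 8 regions come from 1 library per depot and are not replicates. Of these regions, 7 were listed in iWAT, 4 in BAT and 1 in eWAT. The cluster thus reached 8 regions mainly through iWAT, and listing in part built in the low eWAT sum. The ratios below are descriptions. The centred log2 ratio of eWAT over iWAT was -4.00 (-4.51 to -3.54), and that of BAT over eWAT 3.69 (3.08 to 4.32). The Tbx15 cluster passed 2-fold in both comparisons with the authors' own scaling as well.

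The next largest iWAT-sided ratios were at Bbox1, Hdac9, 4930521E06Rik and Pde8a. Bbox1 encodes an enzyme of carnitine synthesis, and its 12 regions had 174 scaled reads from eWAT, 577 from iWAT and 94.0 from BAT, with all 12 regions on the iWAT side of the centre (-1.86, interval -2.09 to -1.64). Hdac9, a class IIa histone deacetylase gene, had 132, 354 and 33.2 (-1.56, interval -1.83 to -1.30). The 4930521E06Rik cluster, which held 3 regions nearest to Col3a1, had 177, 460.4 and 38.7 (-1.51), and Pde8a, a cyclic AMP phosphodiesterase gene, had 151, 368 and 196 (-1.42). At Bbox1, Hdac9 and 4930521E06Rik every region lay on the iWAT side of the centre, and at Pde8a 6 of 8 did. Of all 554 clusters, 11 had no region higher in eWAT relative to the centre. Such counts of regions, here and below, come from the reads that ranked the clusters. They are descriptions, and the regions are not replicates.

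On the eWAT side, the Auts2 cluster (chr5:132828386-132892129) had 633 scaled reads from eWAT, 283 from iWAT and 232 from BAT, a centred ratio of 1.03 (0.87 to 1.19), with 10 of 11 regions on the eWAT side. The Auts2 interval crossed the 2-fold line. Mir3081 (621, 302 and 105, ratio 0.91), St3gal6 (366, 185 and 144, ratio 0.85), Maf (472, 242 and 119, ratio 0.83) and Hotairm1 (683, 351 and 340.1, ratio 0.83) followed below 2-fold. The Hotairm1 cluster lies in the Hoxa gene cluster, whose members set position along the body axis, and had 7 nearest genes, the most of any cluster. One of its regions, 0.184 kb from the Hoxa5 start, had 183, 26.8 and 22.1 scaled reads. At Hoxa3 the order was different, with 49.5, 47.3 and 71.9. Hoxa5, counted through 1 region, and Tbx15 were the 2 genes in clusters among 21 depot and developmental factors with a region. That is 9.52%, beside 5.37% over all genes, and a count of 2 genes is near that share.

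Relative to the centre, 17 clusters (3.07%) were over 2-fold higher in BAT than in eWAT and 39 (7.04%) were lower. Over all stretches of 2 or more regions the shares were 11.6% and 24.0%. For BAT over iWAT the counts were 36 (6.5%) and 43 (7.76%), against 12.6% and 25.5%. These splits depend on the scaling. With the authors' scaling and no centring, 1 cluster was higher in BAT and 439 lower against eWAT, and 0 and 426 against iWAT. With the centre of regions listed in all 3 depots, at -0.75 and -0.66, the splits were 3 and 176, and 0 and 229. With the centre of all stretches of 2 or more regions the balance turned the other way, to 34 higher and 25 lower against eWAT and to 60 and 26 against iWAT. It also moved with the lists that chose the clusters. Without the eWAT list, 13 clusters were higher and 5 lower against eWAT, and without the iWAT list 30 were higher and 3 lower against iWAT. Of the 10 largest BAT-sided ratios, that of Tbx15 over eWAT stayed past 2-fold with the authors' scaling and 9 did not, so a direction given below for BAT is relative to the strongest regions.

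**Figure D5:**
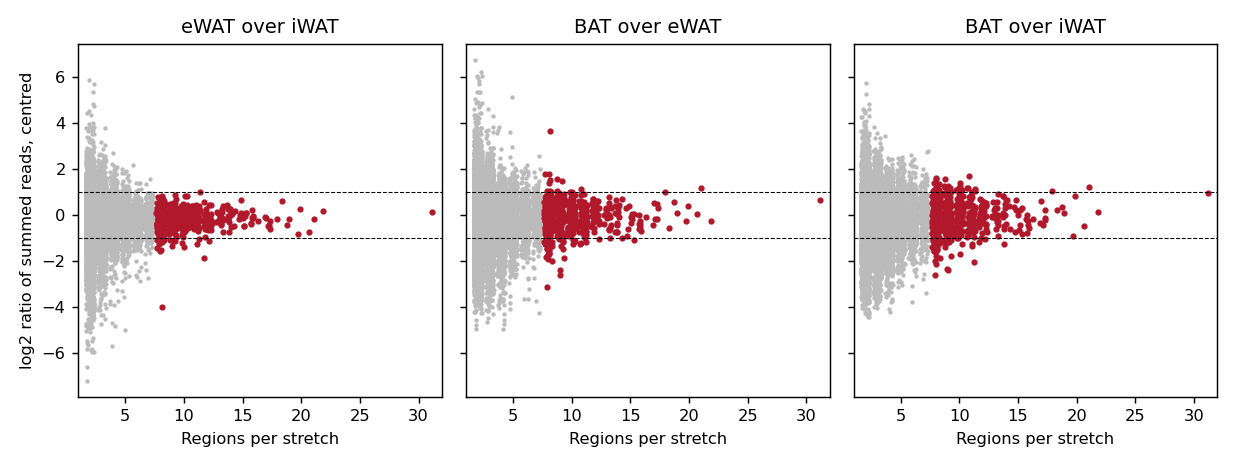
Centred log2 ratio of summed reads (y axis) by the number of regions in a stretch (x axis, points spread sideways for view), for stretches of 2 or more regions with reads in both libraries, with clusters in red and dashed lines at 2-fold. The spread narrows with size, and Tbx15 is the lowest red point for eWAT over iWAT (-4.00) and the highest for BAT over eWAT (3.69).

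The BAT-sided clusters included both at Rybp. The larger, with 1354 scaled reads from eWAT, 939 from iWAT and 1131 from BAT, had a centred ratio of BAT over iWAT of 1.72 (1.57 to 1.88), and 0.27 with the authors' scaling. The smaller had 1.78 over eWAT (1.38 to 2.17) and 1.57 over iWAT (1.20 to 1.93). LOC100505025 (chr7:80463102-80507912) had 384, 392 and 431 scaled reads and was higher in BAT relative to the centre at all 9 regions in both comparisons (1.58 over eWAT and 1.59 over iWAT). Of all 554 clusters, 1 had every region higher in BAT when set over eWAT, and 4 when set over iWAT. Pde8a had 1.79 over eWAT (1.37 to 2.20), and Gm2447, with 310.0, 370.0 and 337 scaled reads, had 1.53 (1.23 to 1.84). Fhl1, a LIM-domain protein gene on chromosome X, had 227, 129 and 147, a ratio over iWAT of 1.64 (1.19 to 2.08). Bahcc1, a chromatin protein gene, had 495, 399 and 389.9, with 1.42 (1.15 to 1.68) over iWAT relative to the centre but -0.03 with the authors' scaling.

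Clusters at the other end were nearly without BAT reads. The 1700016C15Rik cluster (chr1:179624327-179644280) had 191 scaled reads from eWAT, 138 from iWAT and 8.30 from BAT, which were 3 BAT reads over 8 regions. Its centred ratio was -3.11 (-5.40 to -1.54) over eWAT and -2.60 (-4.88 to -1.03) over iWAT. Dab2, an endocytic adaptor gene, had 312, 265 and 19.4 (7 BAT reads), with -2.60 (-3.92 to -1.54) and -2.32 (-3.64 to -1.27). Pla1a, a phospholipase gene, had 230.5, 233 and 16.6 (6 BAT reads), with -2.38 (-3.84 to -1.24) and -2.36 (-3.81 to -1.23). The input sums of these 3 clusters were 5.85, 7.80 and 13 scaled reads, so their BAT sums stood little above the input at 1700016C15Rik and Pla1a.

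The same side held 9430014N10Rik, with 264, 249 and 24.9 scaled reads (9 BAT reads) and a ratio over eWAT of -2.00 (-3.14 to -1.05). Mir29b-1, whose 8 regions lie in introns of Lncpint, had 139, 130.3 and 13.8 (5 BAT reads) against 7.80 in the input. Its ratio over eWAT was -1.91, and the interval, -3.56 to -0.66, crossed the 2-fold line. The side also held 4930521E06Rik, with a ratio over iWAT of -2.12 (-2.99 to -1.36), and Gja1. Gja1, the gap junction gene of connexin 43, had 365 scaled reads from eWAT, 687 from iWAT and 60.9 from BAT over 11 regions, a ratio over iWAT of -2.04 (-2.72 to -1.44). At Gja1 10 of 11 regions were on the iWAT side. All 10 of the largest white-sided ratios given for BAT kept their direction and stayed past 2-fold with the 3 other scalings, by their point values.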

How the data were processed

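TLE3 ChIP-seq was measured in 3 cultured adipocyte libraries and 1 input. Per the submitters' processing notes, the tools were STAR and HOMER and the build mm9. No source used here says how peaks were called. The deposited values are a signal, reads per region that the authors scaled to a common total, with nearest gene and annotation per the file headers. The lowest value of a listed region in its own library was 15.0 scaled reads, and 10.0 times the input.

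The 3 lists were joined by region name and stitched at 12.5 kb with Python 3.11.15, pandas 2.3.3, numpy 2.4.6 and scipy 1.17.1. Whole reads were taken as multiples of each library's step, and 100.0% of values were whole within 0.1 read. Assuming HOMER's default total of 10 M, the values imply 11.3 M (eWAT), 19.0 M (iWAT), 3.62 M (BAT) and 15.4 M (input) reads. Stretch ratios have exact Clopper-Pearson 95% intervals, and the scripts were tested on simulated data. No test between depots was made, with 1 library each. Clusters are named by the gene nearest to most of their regions. Named in the text are the 10 with most regions, the 10 with the largest sums, 5 per pair and direction by ratio, the 5 highest and 3 lowest by mean, up to 4 genes per list, and clusters at the size limit. Hosts of introns, clusters that share a locus, promoters and a few further list genes were picked after their values were seen. Members and lists were chosen with earlier results of these data known. Alternatives were other distances, sizes, lists and scalings. Motifs inside regions were not searched, as no mm9 genome was used here. Of the 10 clusters with the largest sums, 1 is not reported here.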

Additional observations from a re-analysis of the deposited data

How the results depend on the processing

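No paired analysis was possible because each depot has 1 library and no test was made. The number of clusters (554, with 5529 regions) followed the definition. It was 47 clusters (423 regions) with stitching at 6.25 kb, 1839 (22266) at 25 kb, 1452 (11233) with 6 or more regions, 106 (1502) with 12 or more, and 140 (1319) with only regions of 30 or more scaled reads in a library. Without the iWAT list there were 258 (2487), without the eWAT list 239 (2279), and without the BAT list 517 (5133). The share of clusters past 2-fold for eWAT over iWAT (3.79%) was 8.51% at 6.25 kb, 6.61% with 6 or more regions, 1.89% with 12 or more, 1.16% without the iWAT list, 8.79% without the eWAT list and 2.35% with the authors' scaling. For BAT over eWAT (10.1%) it was 6.38% at 6.25 kb, 14.2% with 6 or more regions, 3.77% with 12 or more, 7.53% without the eWAT list, 79.4% with the authors' scaling and 32.3% with the centre of regions listed in all 3. For BAT over iWAT (14.3%) it was 4.26%, 19.7% and 4.72% with those 3 definitions, 76.9% with the authors' scaling and 41.3% with the centre of regions listed in all 3. The Bahcc1 ratio of BAT over iWAT turned to -0.03 with the authors' scaling. With the authors' scaling or the centre of regions listed in all 3, 15 further values of single clusters fell below 2-fold, all of them BAT-sided, and the Mir3081 ratio rose to 1.04 with the authors' scaling. The share of regions listed in all 3 depots, 20.3%, was the same with overlap of at least 1 bp or 50%. BAT values rest on the fewest reads.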
